A study of Drosophila melanogaster with 5 samples.

Results

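The regions described here are stretches of open chromatin inside introns that were called in GABA neurons and not in dopamine neurons of the adult *Drosophila* head. A region was a member if its deposited annotation placed it in an intron, if a peak overlapped it by at least 1 bp in each of the 3 GABA peak lists, and if no peak of the 2 dopamine lists touched it. Members were thus chosen by measured peak calls, and the contrast between the neuron types that defines the members is given below as a description, without a test. This rule found 3505 members among 15928 tested intronic regions and 80590 tested regions in all. The pattern held for 22.0% of the intronic regions and for 13.2% of all tested regions.

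The libraries were made by ATAC-seq, in which the transposase Tn5 inserts sequencing adapters where DNA is accessible, from flow-sorted nuclei of frozen adult heads. GABA neurons (3 libraries) carried nuclear GFP under vGAT-Gal4, a driver built on the vesicular GABA transporter, and dopamine neurons (2 libraries) carried it under TH-Gal4, built on tyrosine hydroxylase. Each library is thus a mixture of all head nuclei in which its driver was active and bright enough to pass a stringent sorting gate, and the labels give no age beyond adult. The labels do not say that the libraries of a neuron type came from separate cultures of flies, so the spread between them may be technical.

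GABA is the main inhibitory transmitter of the fly brain, and GABA neurons include many local interneurons of diverse shape and origin. Introns of animal genes often hold enhancers, which are short sequences bound by transcription factors that act on promoters near or far. Accessibility of an intron shows that proteins could reach the DNA there, and it tells neither which gene such a sequence serves nor whether that gene is transcribed.

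Marker genes were checked first, over all regions whose nearest start site belonged to the gene. Gad1, which encodes the enzyme that makes GABA, had 3 of 6 regions called only in GABA neurons and 0 called only in dopamine neurons. The gene ple, which encodes tyrosine hydroxylase, had 0 of 9 regions called only in GABA neurons and 4 called only in dopamine neurons. Of the other dopamine markers, Ddc had 1 of 5 regions called only in dopamine neurons and Vmat and DAT had 0. The pattern of Gad1 was also seen at VGlut, a marker of glutamatergic neurons, with 3 of 6 regions called only in GABA neurons and 0 only in dopamine neurons. Of the cholinergic markers, ChAT had 0 of 3 and VAChT 2 of 9 regions called only in GABA neurons, and both had 0 only in dopamine neurons. VGAT, the gene behind the GABA driver, had 10 regions, of which 0 fell in either class and 2 were called in all 5 libraries. Lim3, a further GABA marker, had 1 of 7 regions called only in GABA neurons and 0 only in dopamine neurons. Among markers of other cell types, 18 of 48 regions at the 5 photoreceptor markers were called only in GABA neurons and 2 only in dopamine neurons. Over all tested regions, 13.2% were called only in GABA neurons. Most of the 18 lay at norpA, with 12 of its 24 regions, and at trp, with 5 of 7. In contrast, ninaE had 1 of 11 regions called only in GABA neurons and 2 only in dopamine neurons, and trpl and gl had 0 in either class. At the 6 glial markers the counts were 6 and 6 of 51, and at the 3 hemocyte markers 0 and 0 of 18. The 5 muscle markers had counts of 7 and 1 of 51. The gene grh, an epidermal regulator, had 0 of 26 regions called only in GABA neurons and 13 called only in dopamine neurons. The part of such cells in the results was not tested.

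The peak lists differ in length, which bears on every count of members. GABA libraries held 49055, 50314 and 64779 distinct peak intervals, against 40255 and 39261 in dopamine libraries. The lowest fold enrichment listed was 1.25, 1.28 and 1.28 in GABA lists and 1.80 and 1.93 in dopamine lists. Weak peaks were thus listed only for GABA neurons, and whether all lists were made with equal settings is not given in the sources used here. Of the 3505 members, 2016 were also chosen when each list was shortened to its 39261 intervals with the highest −log10 q, which chose 2033 regions in all. A minimum fold enrichment of 2 in every list, chosen after seeing the data, gave 2572 regions, of which 2426 were members. The files hold no read counts per library and region, so no counting interval is given. The reads of each library are stated by the study and were not used here.

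Regions at the edge of the rule show how it works. Inside it, a region in the gene pum (chr3R:9084590-9084731, Release 6) was covered by only 1 bp of peak in its least covered GABA list, and regions in pdm3 and Pde1c by 2 bp. In all, 7 members had at most 10 bp covered in a GABA list. Outside it, a region in the gene spir (chr2L:20313826-20313951) had at least 73 bp covered in every GABA list and was left out for 7 bp of dopamine peak, the only intronic region left out by 10 bp or less. Next to the members stood 1683 intronic regions called in exactly 2 GABA lists and no dopamine list, and 1139 called in all 3 GABA lists and 1 dopamine list. Intronic regions called in both dopamine lists and no GABA list numbered 1508, or 9.47%, and 2256 were called in all 5 libraries. The contrast between 3505 and 1508 depended on the peak lists. With lists of equal length, 2033 regions were called only in GABA neurons and 1711 only in dopamine neurons. With −log10 q of at least 5 these numbers were 3122 and 1147, and with 50% overlap 3483 and 1786.

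Members were mostly peaks of middling strength. MACS2 gives each peak a fold enrichment of reads at its summit over the local background, and each member was given the highest peak with a summit inside it. Such a summit was present in all 3 GABA lists for 3304 members. The median fold enrichment at members was 2.51, 2.54 and 2.37 in GABA libraries 1, 2 and 3, with quartiles of 2.18 and 3.01 in the first of these lists. Ranked within their own list, these peaks had median percentiles of 51.4, 53.9 and 60.9. Intronic regions called in all 5 libraries had higher medians in the same lists, at the percentiles 80.5, 78.0 and 85.0. Only 205 members, 6.20% of those with 3 summits, reached the 75th percentile in all 3 GABA lists, and 4 reached the 90th. The authors' mean normalised count over all 5 libraries had a median of 83.8 at members, compared with 103 at dopamine-only, 271 at shared and 77.2 at all intronic regions. The median width was 166 bp for members, against 157 bp for dopamine-only regions, 399 bp for shared regions and 151 bp for all intronic regions. The rank of a member in one GABA list went with its rank in another, with Spearman rank correlations of 0.62 between libraries 1 and 2 and of 0.52 and 0.51 between these and library 3 (Pearson's r 0.61, 0.49 and 0.49, n = 3304 regions). These correlations describe regions, which share library and base composition and are not replicates.

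The 10 strongest members lay in host genes of differing roles, some without a known one. The highest mean percentile was that of a 226 bp region in the only intron of CG30419 (chr2R:24217766-24217991), with fold enrichments of 6.81, 5.75 and 5.09 in GABA libraries 1, 2 and 3. The same intron held another of the 10 strongest members, 343 bp wide (chr2R:24218142-24218484), with 5.02, 6.07 and 3.91. Both were nearer to the start of CG11406 than to that of any other gene, at 9563 and 9939 bp. In intron 3 of 12 of eag, which encodes a voltage-gated potassium channel, a region (chrX:14979317-14979485) had fold enrichments of 5.52, 6.97 and 3.73. Here library 2 stood above the others, as at the 343 bp region of CG30419, whereas library 1 was highest at its 226 bp region. The nearest dopamine peak to the eag region was 1336 bp away in dopamine library 2 and 23584 bp away in dopamine library 1. Regions in CG46301 (5.60, 5.63 and 4.26) and in the long non-coding RNA gene lncRNA:CR31386 (5.41, 6.02 and 3.86) came next.

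The other 5 of the 10 each lay in a different gene. The gene kirre encodes an immunoglobulin-type adhesion protein, and a region in its intron 2 of 10 (chrX:2839128-2839346) had 5.24, 5.01 and 4.39. The nearest dopamine peak was 394 bp away in dopamine library 1 and 30756 bp away in dopamine library 2. A 115 bp region in sdt, a scaffold protein of cell polarity, had 6.30, 4.38 and 4.43. Regions in Eip63F-1, which encodes a calcium-binding protein (5.12, 5.09 and 4.26), in Ptp99A, a receptor tyrosine phosphatase of axon guidance (5.02, 5.17 and 4.17), and in Gfrl, related to receptors for glial-cell-derived neurotrophic factors (5.80, 4.75 and 3.97), completed the set. In 9 of these 10 members library 3 had the lowest fold enrichment, and sdt was the exception, with its lowest value in library 2. Across the whole list, the fold enrichments of library 3 were also lower, with a median of 2.195, against 2.478 and 2.454 in libraries 1 and 2.

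**Figure D1:**
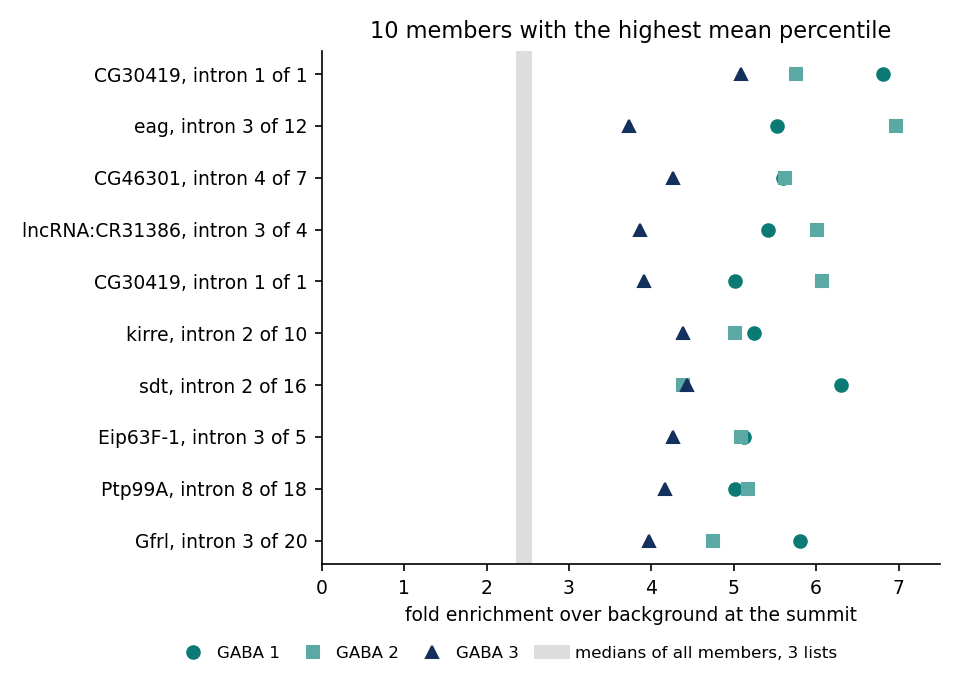
Fold enrichment over background at the summit (horizontal axis) for the 10 members with the highest mean percentile over the GABA lists, 1 row per member named by host gene and intron, with a symbol for each of the 3 GABA libraries; the grey band spans the medians of all members in the 3 lists, 2.37 to 2.54. All 30 values lie at or above 3.73, and library 3 is the lowest in 9 rows.

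Members were not spread evenly over genes. They lay in introns of 768 host genes, 45.8% of the 1678 genes with a tested intronic region, where the host is the gene whose intron the deposited annotation names. A single member was found in 246 of these genes, and the median was 3. The 94 genes with at least 10 members held 1500 of them, or 42.8%. These genes were picked by that number, and their share of all tested intronic regions is not given here. The 42.8% thus has no value beside it. Of the host genes, 754 had a symbol in the deposited table. The annotation names 1 transcript for each region, and where genes lie inside introns of others the host is uncertain: the nearest start site belonged to the host for 44.8% of members, compared with 69.4% of dopamine-only intronic regions.

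The gene with the most members was bru3, which encodes an RNA-binding protein of the CELF family. Of its 119 tested intronic regions, 55 were members, 0 were called only in dopamine neurons and 8 were called in all 5 libraries. The members were spread over 257 kb (chr3L:13544040-13801078), with a median distance of 2.75 kb from one to the next. Their fold enrichments ran from 1.67 to 4.02 in GABA library 1, from 1.73 to 4.83 in library 2 and from 1.84 to 3.95 in library 3. The medians of 2.399, 2.454 and 2.414 were close to those of all members, so bru3 stood out by the number of its members and not by their strength. The number depended on the peak lists. With −log10 q of at least 5 in every list, bru3 had 33 such regions and Rbp6 40, and with equal lists bru3 had 30 and Rbp6 25. Its strongest member, 306 bp wide in intron 2 of 12 (chr3L:13645188-13645493), had 3.68, 4.56 and 3.32.

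RNA-binding proteins held further places among the 15 leading genes. These were ranked by number of members, which went with the number of tested intronic regions (Spearman's rank correlation 0.69 over 1635 genes). Rbp6, of the Musashi family, had 37 members among 139 tested intronic regions (26.6%), and 17 of its regions were called in all 5 libraries. Its share of members lay below the 32.5% of tested intronic regions in genes of 100 kb and over. In mbl, the splicing regulator muscleblind, 30 of 56 regions were members. Of these, 22 lay in intron 3 of 9, which held 46 of the 56 tested regions. The translational repressor gene pum had 28 of 76. Of these, 21 lay in the first intron of a transcript with 5 introns, where 41 regions were tested. The gene shep, which encodes an RNA-binding protein of neurons, had 26 of 66. The strongest mbl member (chr2R:17313189-17313472) had fold enrichments of 4.13, 5.17 and 3.29, and the strongest pum member (chr3R:9191932-9192163) had 4.41, 3.69 and 3.29. In these 4 genes, regions called only in dopamine neurons numbered 0 in Rbp6 and mbl and 2 each in pum and shep. Such regions made up 3.11% of tested intronic regions in genes of 100 kb and over.

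Cell-surface proteins that pair neurons formed the other large set of leading genes. The immunoglobulin proteins dpr6, side-VI and side-III had 29 of 55, 24 of 44 and 24 of 53 intronic regions as members. The teneurins Ten-m and Ten-a, which match synaptic partners, had 27 of 97 (27.8%) and 23 of 55 (41.8%). The transmembrane semaphorin Sema1a had 22 of 49 (44.9%). In genes of 100 kb and over, 32.5% of tested intronic regions were members, more than in Ten-m. None of these 6 genes had an intronic region called only in dopamine neurons. Such regions made up 6.12% of tested intronic regions in genes of 50 to 100 kb and 3.11% in longer genes. In Ten-m, members lay in introns 1 and 2 of 8, which held 57 and 40 of its 97 tested regions. In Sema1a, intron 4 of 22 held 12 members and 32 of the 49 tested regions. The strongest member of Ten-a, in intron 8 of 19, had fold enrichments of 5.52, 4.75 and 3.64 and lay 23737 bp or more from any dopamine peak. The remaining leading genes were CG34353 (36 of 76), olf413 (26 of 78), the A-kinase anchor rg (26 of 64) and SKIP (23 of 62), whose product binds a potassium channel.

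**Figure D2:**
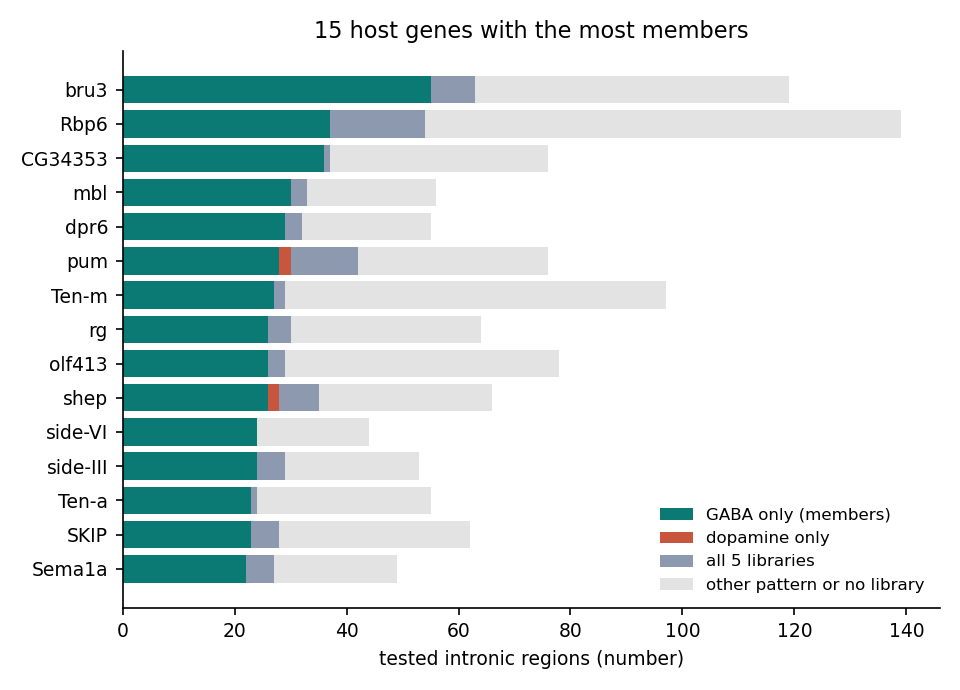
Number of tested intronic regions (horizontal axis) in each of the 15 host genes with the most members, 1 bar per gene, divided by the peak lists in which they were called. The gene bru3 has 55 members and Sema1a 22, and only pum and shep have regions called in dopamine neurons alone, 2 each.

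Neighbouring members often followed each other without another tested region between them. In genome order, 1906 members (54.4%) stood in runs of at least 2, and 102 runs had at least 4. The longest runs, named here after their values were seen, held 8 members. One lay in the first intron of CG43778 (chr2L:13313710-13322354), where the members covered 1544 bp of 8.65 kb and the fold enrichments ran from 2.24 to 4.59, from 2.15 to 4.39 and from 2.15 to 4.12 in GABA libraries 1, 2 and 3. The other lay in intron 5 of 6 of pros, which encodes a homeodomain protein of neural fate (chr3R:11378534-11391271), over 12.7 kb, at least 5743 bp from any dopamine peak. Another 7 members followed each other within 2.94 kb in intron 3 of 9 of nAChRalpha1, a nicotinic acetylcholine receptor subunit. Whether members of a run belong to a single wider open stretch was not tested. Runs of dopamine-only or shared regions are not given here, so the share of members in runs has no value beside it.

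The distance to dopamine peaks varied widely. The median gap from a member to the nearest dopamine peak was 2653 bp, with quartiles of 720 and 6762 bp. A dopamine peak lay within 100 bp of 118 members (3.37%) and within 500 bp of 691 members (19.7%), and 2998 members (85.5%) had one within 10000 bp. The smallest gap was 10 bp. Thus 2814 members had no dopamine peak within 500 bp. The rule left out regions that overlapped a dopamine peak. Gaps of other intronic regions are not given here, so these shares have no value beside them.

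Members lay farther from start sites of genes than dopamine-only and shared intronic regions did. The distance was taken to the nearest start site of any gene, which was often not that of the host. All intronic regions were at least 2001 bp from the nearest start site, since the annotation assigns closer ones to promoters. The median distance was 8480 bp for members, against 4278.5 bp for dopamine-only 5797.5 bp for shared and 6576 bp for all intronic regions. A first intron held 949 members (27.1%), compared with 46.1% of dopamine-only, 35.6% of shared and 33.2% of all intronic regions, and introns numbered 3 or higher held 1410 members (40.2%), compared with 20.1%, 28.4% and 33.8%. When each host gene counted once, the mean share in first introns was 34.1% for members, 47.0% for dopamine-only and 41.4% for shared regions. The order of members, shared and dopamine-only regions in these shares was the same with stricter or equal peak lists, but not in long genes. Members were spread over the 5 chromosome arms in the tested regions much like all intronic regions, with a share from 21.1% of intronic regions on arm 2R to 23.2% on arm 3L.

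The span of the host gene went with these shares. Host genes had a median span of 38.5 kb in RefSeq Release 6 annotation, against 15.4 kb for genes with tested intronic regions but no member. In genes under 20 kb, 10.2% of the tested intronic regions were members and 20.5% were called only in dopamine neurons. In genes of 100 kb and over, 32.5% were members and 3.11% were called only in dopamine neurons. The shares of members in genes of 20 to 50 kb and of 50 to 100 kb were 19.4% and 25.1%, and those of dopamine-only regions 10.5% and 6.12%. The share of members was thus higher with each step in gene span, and that of dopamine-only regions lower. Within genes under 20 kb, a first intron held 44.9% of members, 55.3% of dopamine-only and 54.8% of shared regions. In genes of 20 to 50 kb it held 35.5%, 46.4% and 39.0% of these classes. Members had the lowest share in both. In genes of 50 to 100 kb the shares were 25.7% of members, 39.7% of dopamine-only and 23.2% of shared regions, and in genes of 100 kb and over 14.9%, 12.0% and 22.9%. Members thus stood between the other classes in the longer genes. Over 1635 genes with a RefSeq span, Spearman's rank correlation with the span was 0.62 for the number of members and 0.07 for the number of dopamine-only intronic regions, where longer genes also have more tested regions.

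**Figure D3:**
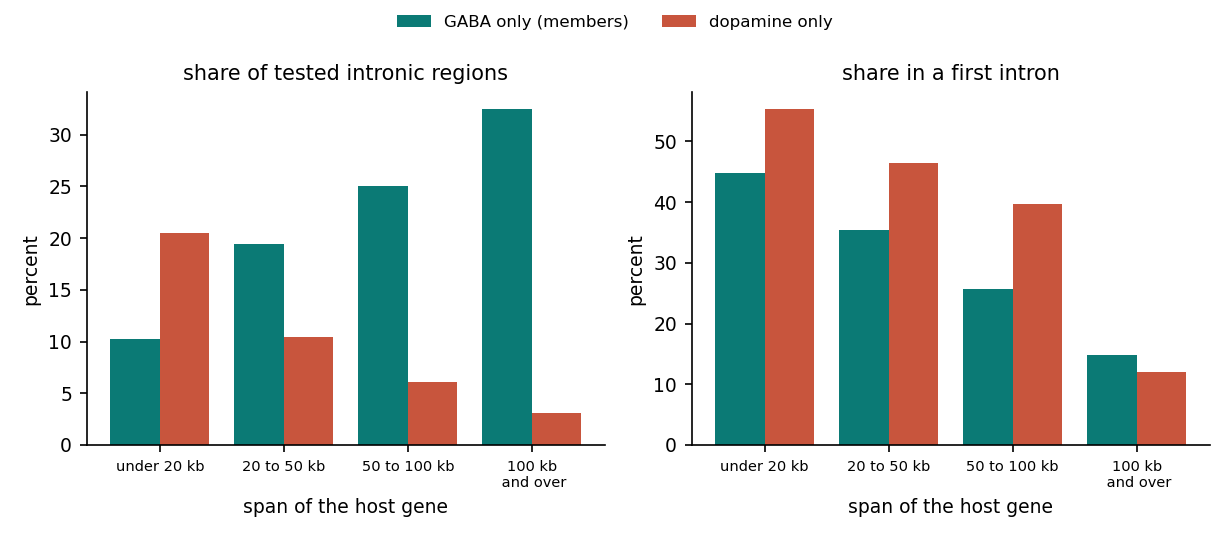
Share in percent of all tested intronic regions that were members or called only in dopamine neurons (left), and share of each class that lay in a first intron (right), for host genes of 4 classes of span. The share of members is 10.2% in genes under 20 kb and 32.5% in genes of 100 kb and over, and the share of dopamine-only regions is 20.5% and 3.11%; in a first intron of the longest genes lay 14.9% of members and 12.0% of dopamine-only regions.

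Most host genes had a promoter that was open in both neuron types. Of the 768 host genes, 675 (87.9%) had at least 1 tested promoter region called in all 5 libraries, compared with 734 (80.7%) of the 910 genes without a member. A further 27 had none of these but a promoter region called only in GABA neurons, and 27 had no tested promoter region. Counted regardless of other promoter regions, 287 host genes (37.4%) had a promoter region called only in GABA neurons, compared with 129 (14.2%) of the genes without a member. The genes without a member were shorter, and the promoter class was not compared within classes of span. Of the host genes, 227 (29.6%) also had an intronic region called only in dopamine neurons, compared with 420 (46.2%) of the genes without a member. Among the genes with at least 5 members, cv-c had the most of these, with 5 members and 12 dopamine-only regions, followed by Glut4EF with 8 and 10. Conversely, 71 of the 94 genes with at least 10 members had 0 intronic regions called only in dopamine neurons. Counted the other way, 647 of all 1678 genes with a tested intronic region had at least 1 such region. Dopamine-only regions made up 20.5% of tested intronic regions in genes under 20 kb and 3.11% in genes of 100 kb and over. The counts of genes with such regions were not compared within classes of span.

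Genes were next taken in lists by role. Beside their counts stand the 22.0% of all intronic regions that were members, the 32.5% in long genes and the 10.2% in genes under 20 kb. The spans of the genes were not compared between lists. The lists of axon guidance and adhesion, of RNA-binding and splicing, and of the Dpr, DIP, Beat and Side families held the largest numbers of members, and also the most tested intronic regions. For the Dpr, DIP, Beat and Side families, 246 of 654 intronic regions (37.6%) were members, in 38 of 44 genes with a tested intronic region, and 0 were called only in dopamine neurons. After dpr6, side-VI and side-III, dpr12 had the most, with 18 of 65. For axon guidance and adhesion the count was 315 of 979 (32.2%), led by Ten-m, Ten-a, Sema1a and the leucine-rich repeat protein gene Con (21 of 48), and 2.55% were called only in dopamine neurons. For RNA-binding and splicing it was 249 of 756 (32.9%), against 2.65%.

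Some lists of channels and receptors had shares as high on fewer regions. For nicotinic acetylcholine receptors, 54 of 133 intronic regions (40.6%) were members and 0 were called only in dopamine neurons. The subunit gene nAChRalpha1 had 18 of 31, and nAChRalpha3, nAChRalpha5 and nAChRalpha6 had 11 each. For voltage-gated, potassium and TRP channels the count was 105 of 312 (33.7%), led by the potassium channel gene Sh with 22 of 63, the T-type calcium channel gene Ca-alpha1T with 13 of 27, and eag and SK with 11 each. In Sh, a 208 bp member in intron 2 of 12 (chrX:17997619-17997826) had fold enrichments of 4.58, 4.50 and 4.37, close to each other in the 3 libraries, and lay 61 bp from a peak of dopamine library 2. Glutamate receptors had 10 of 26 (38.5%), of which 7 lay in GluClalpha, a glutamate-gated chloride channel subunit, and muscarinic receptors had 1 of 12.

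Receptors for dopamine itself were among the host genes. In the list of dopamine synthesis, transport and receptors, 17 of 43 intronic regions were members, all of them in receptor genes, and 0 were called only in dopamine neurons. Dop2R had 9 of 20, and Dop1R1 and Dop1R2 had 4 of 8 each. A 256 bp region in intron 4 of 5 of Dop1R1 (chr3R:14190674-14190929) had fold enrichments of 3.51, 4.91 and 3.86, and a 468 bp region in intron 2 of 8 of Dop2R (chrX:20032143-20032610) had 4.97, 3.75 and 3.47. The nearest dopamine peaks to these were 20068 and 8443 bp away. Serotonin genes had 17 of 48, with 6 in the receptor gene 5-HT1A and 5 in 5-HT7, and octopamine and tyramine genes had 34 of 102, with 9 in Octalpha2R and 6 in Octbeta2R. Neuropeptide receptors had 36 of 130, with 7 of 8 regions in MsR1, a myosuppressin receptor, 5 in Pdfr and 4 in Proc-R. Neuropeptide genes had 4 of 23, in sNPF and Dh31, with 2 each.

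For GABA genes themselves the counts were small. Genes of GABA synthesis and transport had 2 tested intronic regions, of which 0 were members. GABA receptor genes had 3 members among 13. The GABA-B receptor gene GABA-B-R1 had a 261 bp member in intron 2 of 15 (chr2L:15021693-15021953), with fold enrichments of 4.66, 4.21 and 4.15. Rdl, which encodes a subunit of the GABA-gated chloride channel, had members of 132 and 92 bp in intron 2 of 9 (chr3L:9172203-9172334 and chr3L:9172467-9172558). The wider had 4.46, 3.21 and 2.65, with library 1 above the others, and the narrower 2.70, 2.62 and 2.53. Dopamine peaks lay 323 and 587 bp from these. Genes of cholinergic and glutamatergic identity had 8 members among 32, of which 5 lay in Ace, which encodes acetylcholinesterase, 2 in VAChT and 1 in VGlut, genes for vesicular transporters of other transmitters. VAChT lies within the ChAT locus, so its host is uncertain.

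Signalling and synaptic genes were counted next. For cAMP signalling, 94 of 295 intronic regions (31.9%) were members, with 14 each in the phosphodiesterase genes Pde9 and Pde1c and 12 of 30 in dnc, the cAMP phosphodiesterase of fly memory, beside rg. Of the regions in this list 8.14% were called only in dopamine neurons. For the synaptic vesicle and active zone the count was 61 of 239 (25.5%), of which 19 lay in Snap25, a SNARE protein of vesicle fusion, among its 31 tested regions, 13 in the scaffold gene Fife and 7 in futsch. Members of Snap25 lay over 140 kb in 5 of its 7 introns, the only ones with tested regions. Their fold enrichments ran from 1.90 to 3.68, from 1.64 to 3.38 and from 2.06 to 3.64 in GABA libraries 1, 2 and 3, so no single strong region marked this gene.

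Most lists of transcription factor genes had a share of members below the 22.0% of all intronic regions. In genes under 20 kb, 10.2% of tested intronic regions were members and 20.5% were called only in dopamine neurons. Whether the shares of these lists went with the spans of their genes was not tested. Homeobox genes other than Hox and LIM had 20 of 139 (14.4%), with 5 in hth, 4 in NK7.1, 3 in ara and 2 in Rx, and 17.3% of their intronic regions were called only in dopamine neurons. Basic helix-loop-helix genes had 6 of 122 (4.92%), of which 4 lay in sima, against 18.03% for dopamine-only regions. Genes of neuronal birth order had 29 of 266 (10.9%), led by mamo with 8 and br with 6, and nuclear receptors and ecdysone response genes had 18 of 242 (7.44%), with 3 each in Hr4, Eip75B and EcR beside br. Here hth had 5 members and 5 dopamine-only regions among 40, and mamo had 8 and 9 among 46, so these genes held regions of both classes. The LIM homeobox list had 1 member among 18, in Awh (chr3L:3855707-3856046), with fold enrichments of 2.96, 3.22 and 2.68. Hox genes had 2 of 19, in Antp and abd-A, so these lists rest on few regions. The Sox and POU lists lay above 22.0%, with 5 of 14 (35.7%) for Sox genes, of which 3 lay in Sox100B, and 9 of 34 (26.5%) for POU genes, all in pdm3. Among smaller lists, sex determination genes had 11 of 43 (10 in fru), activity-regulated genes 3 of 29 (all in sr) and circadian clock genes 1 of 40, in Pdp1.

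**Figure D4:**
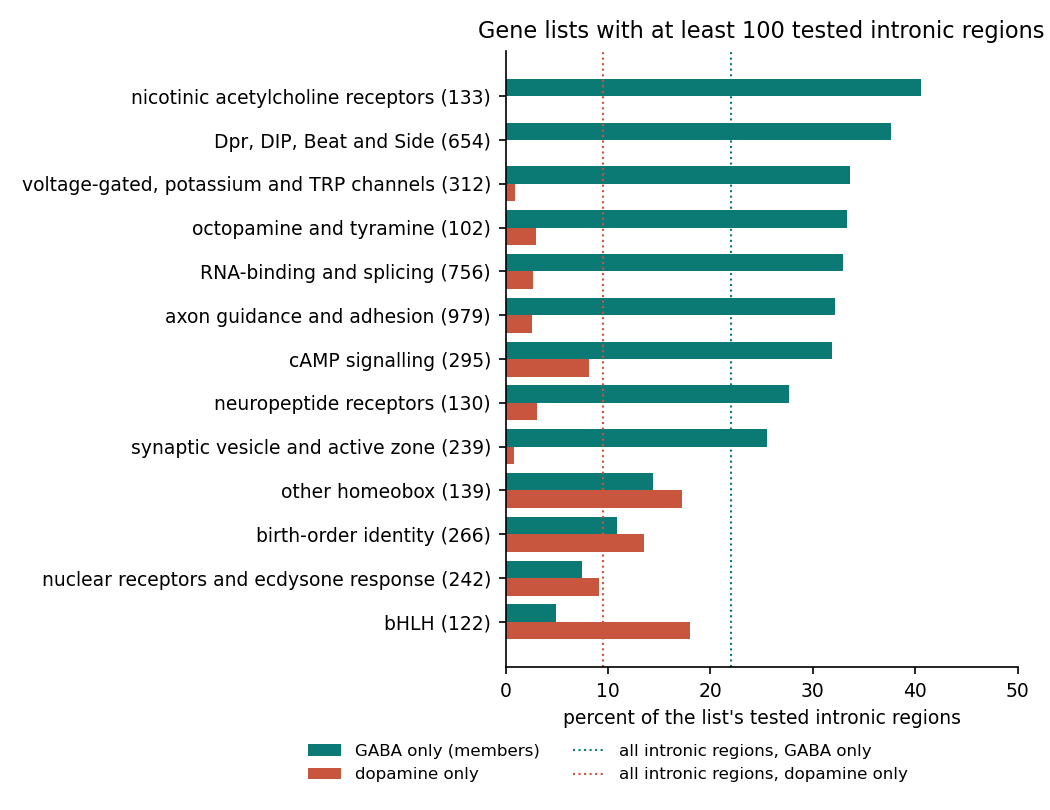
Share in percent of the tested intronic regions of each gene list that were members or called only in dopamine neurons, for the 13 lists with at least 100 such regions (number in parentheses); dotted lines mark the shares over all intronic regions, 22.0% and 9.47%. Nicotinic receptors (40.6%) and the Dpr, DIP, Beat and Side families (37.6%) have the highest shares of members, and basic helix-loop-helix genes the lowest (4.92%), with 18.03% called only in dopamine neurons.

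Lists of other cell types were counted in the same way. Glial genes had 0 members among 14 intronic regions, with 7 called only in dopamine neurons, and fat body genes had 0 among 6, with 2. Epidermal genes had 1 among 24, in verm, with 11 called only in dopamine neurons. Photoreceptor genes had 19 of 50 (38.0%), with 1 called only in dopamine neurons, and 11 of these members lay in norpA, the phospholipase C of phototransduction, and 5 in rdgA. Muscle genes had 13 of 63 (6 in Mef2, which neurons also use), and hemocyte genes had 5 of 18, all in Pxn. In these intronic lists, the glial and epidermal shares thus stood on the dopamine side and the photoreceptor share on the GABA side. The shares of members and of dopamine-only regions also went with gene span, which was not compared between these lists. Over all regions of the 6 glial markers above, the counts were even, at 6 and 6 of 51. Counts called only in GABA and only in dopamine neurons were 3 and 0 in repo, 2 and 0 in alrm, and 0 and 5 in Eaat1. The part of such cells in the counts above was not tested.

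How far the choice of members depended on single libraries was described by leaving out 1 GABA and 1 dopamine library and choosing regions with the other 3. Between 4344 and 4990 intronic regions were chosen in this way. Of these, 85.2% to 89.3% were called in the left-out GABA library, where 54.2% to 59.4% of all intronic regions were called. In the left-out dopamine library 7.70% to 17.4% were called, where 31.0% to 35.1% of all intronic regions were. The left-out dopamine libraries differed, since dopamine library 2 held peaks at 16.7% to 17.4% of the chosen regions and dopamine library 1 at 7.70% to 8.17%. Chosen regions already had peaks in the GABA lists used and none in the dopamine list used. All intronic regions were not held to this, so the contrast with them follows in part from the choice. The 6 choices share libraries and regions and were given no test. How the tested regions were made is not given, and they may have been made from these same 5 libraries. Of the 15928 intronic regions, 2782 overlapped no peak in any list. These regions count in the shares given for all intronic regions.

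**Figure D5:**
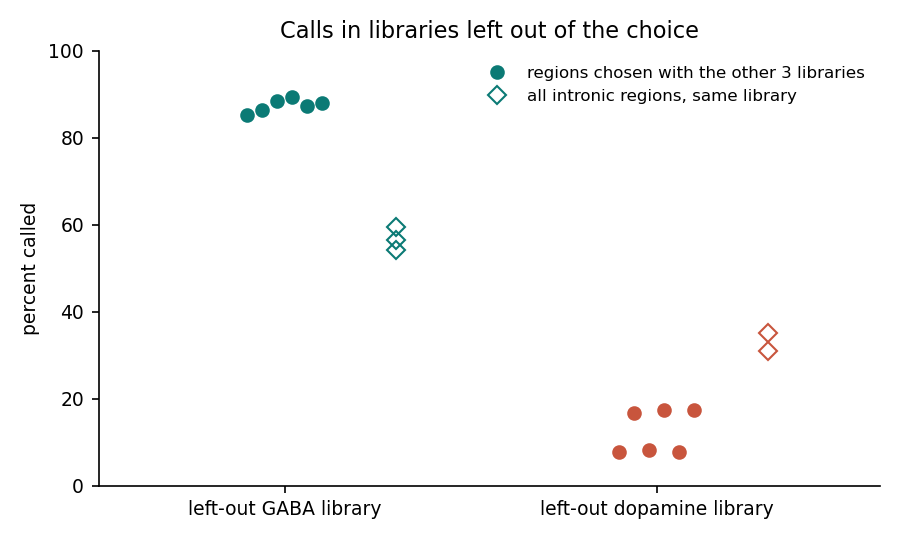
Share in percent of intronic regions called in a left-out library, for regions chosen with the other 3 libraries (filled circles, 6 choices) and for all intronic regions in the same libraries (open diamonds). Left-out GABA libraries called 85.2% to 89.3% of the chosen regions and left-out dopamine libraries 7.70% to 17.4%. The contrast with all intronic regions follows in part from the choice.

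The share of peaks that fell on intronic regions could be compared over libraries without choosing regions by pattern. Of the distinct peak intervals, 8831 of 49055, 9198 of 50314 (18.3%) and 9847 of 64779 (15.2%) overlapped a tested intronic region in GABA libraries, against 5093 of 40255 (12.7%) and 5582 of 39261 (14.2%) in dopamine libraries. The groups did not overlap, and GABA library 3 lay closest to dopamine library 2. The means were 17.2% ± 1.70 in GABA libraries (SD, n = 3) and 13.4% ± 1.11 in dopamine libraries (SD, n = 2), a difference of 3.73 percentage points (two-sided exact permutation test, p = 0.2). This is the smallest p that 3 libraries against 2 allow, so the difference could not pass a threshold of 0.05.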

How the data were processed

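ATAC-seq libraries of GABA neurons (3) and dopamine neurons (2) were analysed from a peak list per library and 1 table of tested regions. The authors converted reads with bcl2fastq 1.8.4, aligned them with Bowtie2 to dmel_r6.26 (BDGP6), removed duplicates with Picard, called peaks per library with MACS2 and annotated regions with ChIPseeker. In the peak lists the authors deposited a fold enrichment (a linear ratio) and −log10 p- and q-values at each summit. In the table the authors deposited a mean signal per region, read counts over all 5 libraries divided by size factors, with no value per library. Its remaining columns hold the authors' DESeq2 comparison (log2 fold change, standard error, statistic and p-values) and were not used. MACS2 settings and the way the regions were made are not given in the sources used here.

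Peak positions were converted to count from 1. Region starts were used as given; the table does not say whether they count from 0 or 1, so a start may lie 1 bp off. Overlaps, gaps, percentiles and shares came from Python 3.11.15 code that used pandas 2.3.3, scipy 1.17.1 and numpy 2.4.6; matplotlib 3.10.9 drew the figures. These functions were tested on simulated data. Gene spans came from RefSeq Release 6, in which 97.9% of host genes matched. No genome sequence was used here, so sequences, GC content and motifs were not analysed.

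The members and the 34 gene lists were chosen with earlier results of these data known. Named genes were the 15 host genes with the most members, the 10 members with the highest mean percentile, members in GABA and LIM homeobox genes, and up to 4 leading genes per list. All 5 per-library lists and the mean column matched a sample or all samples. Alternatives were stricter, equal or differently overlapping peak lists, another gene assignment and ranking, distance from dopamine peaks and leaving out each library.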

Additional observations from a re-analysis of the deposited data

How the results depend on the processing

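The number of members was 3505. It was 2033 with an equal number of intervals per list and lay between 2572 and 3483 with −log10 q of at least 5, a fold enrichment of at least 2, 50% overlap or no dopamine peak within 500 bp. With an equal number of intervals, dopamine-only intronic regions numbered 1711, in place of 1508. With −log10 q of at least 5, 3122 regions were chosen, of which 1817 were members, so 51.8% of members were kept. Without each library in turn the number lay between 3838 and 4311, which holds all members by construction, and the number of host genes between 808 and 863. With the nearest gene in place of the host there were 1254 genes in place of 768. The share in a first intron was 28.8% with −log10 q of at least 5 and 26.5% to 28.3% under the other alternatives. The share called in the left-out GABA library was 82.3% with equal lists and 84.4% with a fold enrichment of at least 2 (chosen after seeing the data), compared with 87.4%, and the share called in the left-out dopamine library was 6.31% with −log10 q of at least 5, compared with 12.5%. Ranked by −log10 q, the median percentiles were 45.9, 48.0 and 55.3. The cause of these changes was not tested. Region starts 1 bp later gave the same 3505 members. The tested regions lie on 5 chromosome arms, so restricting the chromosomes changed nothing.

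For the share of peaks at intronic regions, the replicate block (the paired difference of libraries numbered 1 and 2) gave 4.71 percentage points, in place of 3.73. The labels give these numbers no shared batch. Without each library the difference lay between 2.94 and 4.71 points, and with stricter or equal lists it was 5.01 and 4.65. GABA was higher in each. The alternatives on GC content and motifs were not run, since no genome sequence was used here.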
